A study of Mus musculus with 6 samples.

Results

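The genes described here are 10 drivers of the G1 phase of the cell cycle: the D-type cyclins Ccnd1, Ccnd2 and Ccnd3, the E-type cyclins Ccne1 and Ccne2, their kinases Cdk4, Cdk6 and Cdk2, and the transcription factor genes Myc and Mycn. They were chosen by name, and each name matched 1 of the 42747 rows of the gene table. All 10 passed the filter on low counts and belong to the 18383 genes tested. The data are polyadenylated RNA from whole testes of E16.5 mouse embryos, sequenced as 3 cKO libraries and 3 WT libraries from as many separate mice, as the series design states. The series title names the kinase CK1α in Sertoli cells, so cKO was read as a conditional knockout of Csnk1a1 in these supporting cells of the testis cords. The Cre driver, the deleted part of Csnk1a1, the strain and the genotype of the controls were not given in the sources used here.

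Cells commit to a new division in G1. D-type cyclins bind CDK4 and CDK6 and start the phosphorylation of the retinoblastoma protein RB, and E-type cyclins with CDK2 complete it, which frees E2F factors to switch on genes for DNA synthesis. MYC and MYCN pair with MAX at CACGTG sequences called E-boxes and raise the expression of many growth genes, Ccnd2 and Cdk4 among them. Ccnd1 and Myc were reported as targets of β-catenin in human colon cancer cells, and CK1α takes part in the phosphorylation that marks β-catenin for breakdown. In the fetal testis at this age Sertoli cells divide, while the germ cells of the cords have entered a quiescent state.

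Library totals ran from 15092619 to 17431546 counts. Values in CPM are counts relative to a library total scaled by edgeR's TMM factor, and log2 fold changes are cKO against WT. Csnk1a1 itself stood at 396, 405 and 377 CPM in the cKO libraries, against 371, 396 and 348 CPM in the WT libraries. Since the deleted part is not known and other cells of the organ express the gene, this does not check the labels. Markers of the cell types of a testis were present. Of 12 Sertoli cell markers none was at 0, and their summed level was 1278 to 1747 CPM in cKO and 3046 to 4056 CPM in WT. Of them 10 were called lower and 0 higher in cKO by edgeR. The 2 not called were Gata4 (log2 fold change -0.48) and Wt1 (log2 fold change 0.23). Wt1 was higher in every cKO library than in every WT library. Fetal Leydig cell markers (8 genes) summed to 5495 to 7320 CPM in cKO and 4123 to 4842 CPM in WT, and interstitial progenitor markers (8 genes) to 12320 to 20520 CPM in cKO and 8438 to 13700 CPM in WT. Markers of germ cells (11 genes found) summed to 755 to 1345 CPM in cKO and 1165 to 1599 CPM in WT. Genes listed for the granulosa lineage of the ovary (6 genes) were also apart, at 264.8 to 305.6 CPM in cKO and 95.4 to 120.6 CPM in WT. Of these 6, edgeR called 2 higher, Wnt4 (log2 fold change 1.71) and Foxl2 (log2 fold change 2.84), and 0 lower. Sums also did not overlap for peritubular myoid cells (6 genes; 751.5 to 853.8 CPM in cKO, 933.9 to 1107 CPM in WT) and for mesonephric duct and epithelium (6 genes; 43.95 to 65.06 CPM in cKO, 28.21 to 35.29 CPM in WT). Of the 6 myoid genes edgeR called Ptch1 lower (log2 fold change -0.87) and Des higher (log2 fold change 0.72). Ptch1 averaged 214 CPM in cKO and 391 CPM in WT. The median log2 fold change of the 6 myoid genes was 0.016, with 4 of 6 positive. In RNA of a whole organ, fewer cells of a type and less RNA per cell cannot be told apart. The part of these shifts in the results below was not tested.

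Of the 10 genes, Ccnd1 was higher and Mycn lower in cKO testes at an adjusted p under 0.05 (quasi-likelihood test of edgeR, p-values adjusted over all tested genes by Benjamini-Hochberg). Among all tested genes 3.35% were called, 1.50% higher and 1.84% lower. The groups did not overlap for 6 of the 10 genes, against 21.6% of all tested genes: Ccnd1, Ccnd2, Ccnd3, Ccne1 and Cdk6 were higher in every cKO library than in every WT library, and Mycn was lower. All of these 6 had an unadjusted p under 0.05, as had 15.8% of all tested genes. Ccne2, Cdk2, Cdk4 and Myc overlapped between the groups. The median log2 fold change of the 10 was 0.21, with 7 of 10 positive, and that of all tested genes was 0.00264.

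Compared per length, the kinase Cdk4 and the cyclin Ccnd2 had the highest levels of the 10 genes in both groups. The length is the one the authors gave for each gene. Any order between genes depends on it, and the lengths of the transcripts present were not known. FPKM, the authors' length-corrected level, averaged 88.8 ± 1.57 for Cdk4 in cKO and 86.0 ± 6.80 in WT (SD, n = 3 each), a level above that of 97.8% of all tested genes in WT. In WT the order then ran Ccnd2 (52.7 ± 4.67 FPKM), Cdk2 (37.0 ± 2.26 FPKM), Ccnd3 (24.3 ± 2.23 FPKM), Mycn (15.4 ± 1.65 FPKM) and Myc (5.94 ± 0.761 FPKM). Below these lay Ccnd1 (5.23 ± 0.324 FPKM), Ccne2 (4.99 ± 0.328 FPKM), Ccne1 (3.87 ± 0.193 FPKM) and Cdk6 (0.629 ± 0.115 FPKM), the last above 12.4% of tested genes. Within WT the ranges of Myc and Ccnd1 overlapped, as did those of Ccnd1 and Ccne2, so these neighbours do not differ beyond their spread. In cKO the upper 5 places were held by the same genes, but Ccnd1 (8.19 ± 0.641 FPKM) stood above Myc (6.41 ± 0.635 FPKM) and its range overlapped that of Mycn (9.01 ± 1.24 FPKM). Ccne1 (5.56 ± 0.691 FPKM) also stood above Ccne2 (4.48 ± 0.958 FPKM) there, with overlapping ranges, and Myc and Ccne1 overlapped too.

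**Figure D1:**
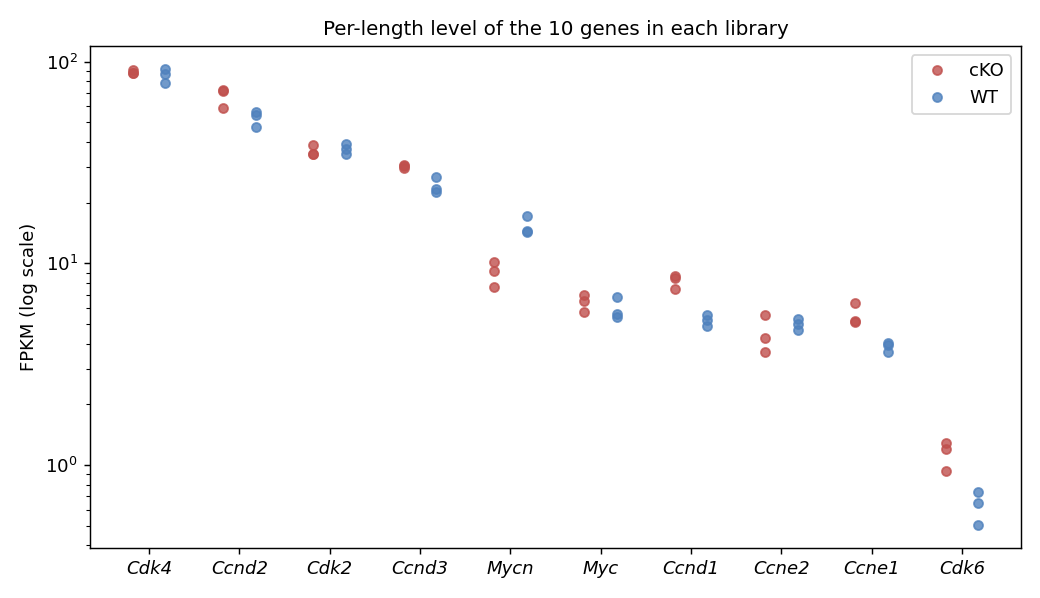
FPKM of each gene (log scale) in the 3 cKO libraries (red, left) and the 3 WT libraries (blue, right), with genes ordered by their WT mean and each point 1 library. Levels span from 0.629 FPKM for Cdk6 to 86.0 FPKM for Cdk4 in WT; the cKO points of Mycn lie below and those of Ccnd1 above all WT points.

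Ccnd1 encodes cyclin D1, the D-type cyclin whose transcription answers growth factors and, in several tissues, Wnt signals. It had 33.4, 32.8 and 28.8 CPM in cKO libraries 1, 2 and 3, against 19.1, 21.4 and 20.4 CPM in WT libraries 1, 2 and 3. The lowest cKO library lay well above the highest WT library. Ccnd1 was 1.56-fold higher in cKO (95% interval 1.25 to 1.94; log2 fold change 0.64, SE 0.142, edgeR adjusted p = 0.0329). The call did not withstand the loss of most single libraries, although the log2 fold change stayed between 0.60 and 0.71. With edgeR the adjusted p was 0.0603 without cKO library 1, 0.0463 without cKO library 2, 0.0775 without cKO library 3, 0.166 without WT library 1, 0.0849 without WT library 2 and 0.146 without WT library 3. With limma-trend on the FPKM values the adjusted p was 0.061 and 0.0674, at pseudocounts of 0.1 and 1. The gene spans positions 155727809 to 155737748 on the minus strand of chromosome 7 in the C57BL/6NJ coordinates of the file. Its last 814 bases overlap Oraov1 on the other strand, and without a stated strand setting reads there cannot be told apart. Oraov1 had 335 to 472 counts in cKO and 348 to 371 counts in WT (edgeR adjusted p = 0.68).

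Ccnd2 encodes cyclin D2, the D-type cyclin tied to gonadal growth: mice without it have small testes, and female mice have granulosa cells that fail to divide in response to follicle-stimulating hormone. It had the highest CPM and FPKM of the D cyclins, at 688, 683 and 560 CPM in cKO, against 455, 520 and 534 CPM in WT. The cKO library 3 was the lowest of its group and lay close to the highest WT library, so the groups were apart by a narrow margin. The fold was 1.28 (95% interval 1.04 to 1.57; log2 fold change 0.36, SE 0.135), and the difference was not called (edgeR adjusted p = 0.224). Ccnd3, which encodes cyclin D3, had 275, 270 and 265 CPM in cKO and 209, 238 and 202 CPM in WT. The cKO libraries were nearly equal, and all 3 lay above the WT libraries. Its fold was 1.25 (95% interval 1.05 to 1.49; edgeR adjusted p = 0.197), so it was not called either. The limit on overlapping genes also touches both: Ccnd3 shares 367 bases with Bysl on the other strand (436 to 589 counts in cKO and 414 to 499 counts in WT), and Ccnd2 overlaps a pair of antisense rows with at most 7 counts in any library.

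Ccnd2 held most of the summed D cyclin FPKM in both groups. The authors' gene lengths behind these values were 3836 bases for Ccnd1, 9431 bases for Ccnd2 and 8807 bases for Ccnd3. Other lengths would change the shares below, and the lengths of the transcripts present were not known. The summed FPKM of the D cyclins was 112, 111 and 96.2 in cKO, against 75.6, 87.1 and 84.0 in WT. Of that sum Ccnd1 made up 7.71%, 7.66% and 7.74% in cKO and 6.47%, 6.36% and 6.26% in WT. Ccnd2 held 63.6 ± 2.05% in cKO and 64.1 ± 2.30% in WT, and Ccnd3 held 28.7 ± 2.01% in cKO and 29.5 ± 2.21% in WT (SD, n = 3 each). The share of Ccnd1 did not overlap between the groups, and those of Ccnd2 and Ccnd3 did. These shares were not tested, and with 3 libraries a group an exact permutation test could not go below p = 0.1.

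Ccne1 and Ccne2 encode cyclins E1 and E2, the partners of CDK2 at the entry into S phase. Ccne1 had 13.8, 17.0 and 13.9 CPM in cKO, against 10.9, 10.5 and 9.81 CPM in WT. Every cKO library was higher, with cKO library 2 at the top. The fold was 1.43 (95% interval 1.08 to 1.90) and the gene was not called (log2 fold change 0.52, SE 0.184, edgeR adjusted p = 0.19). Ccne2 had 19.5, 15.1 and 12.8 CPM in cKO and 18.9, 16.4 and 17.6 CPM in WT. Here the cKO libraries spread around the WT range on both sides, at a fold of 0.895 (95% interval 0.669 to 1.20; edgeR adjusted p = 0.743). Ccne2 overlaps Ints8 on the other strand over 5613 bases, and reads there cannot be told apart. The FPKM ratio of Ccne2 to Ccne1 was 1.08, 0.674 and 0.701 in cKO and 1.32, 1.19 and 1.36 in WT, without overlap and without a test.

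**Figure D2:**
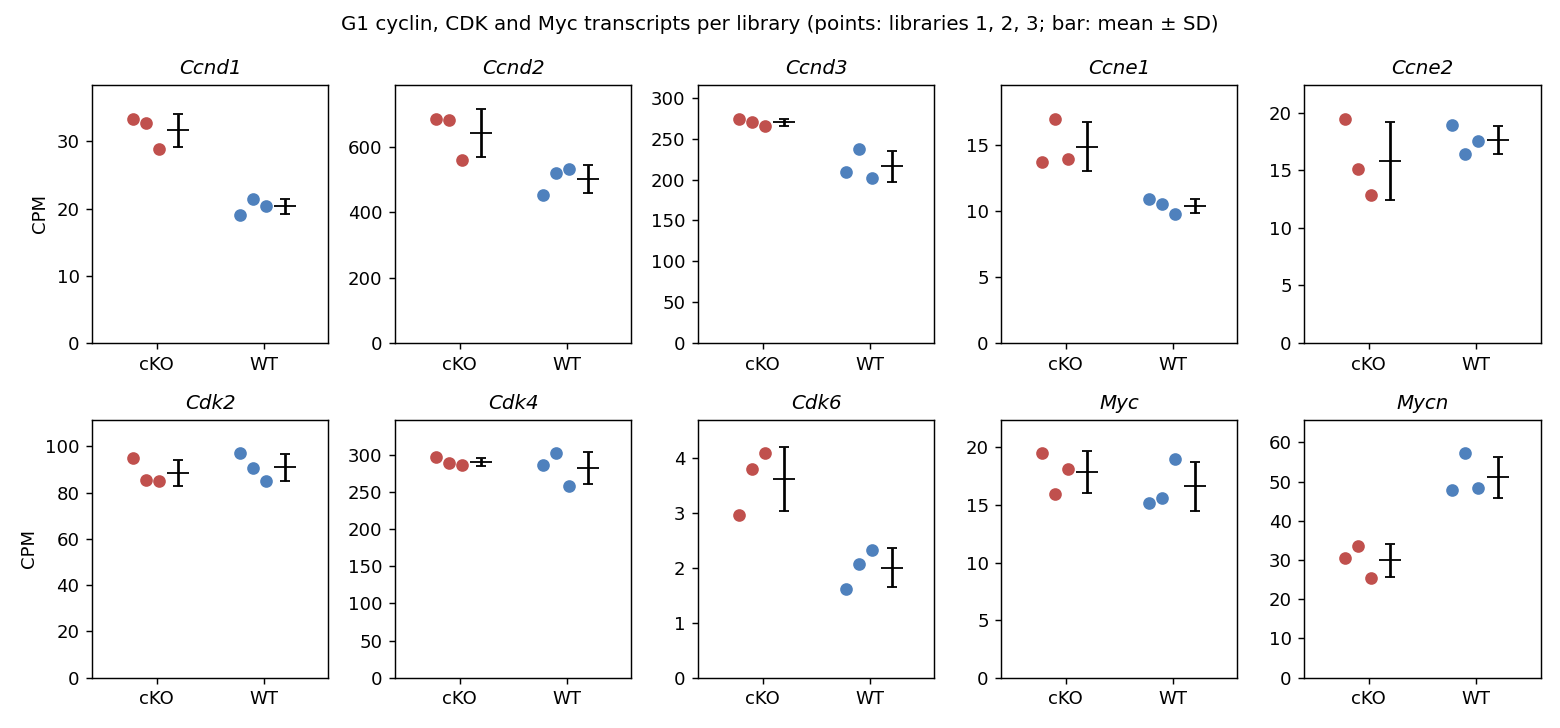
CPM of the 10 genes in each library, cKO (red) left of WT (blue), with bars for the mean ± SD of the 3 libraries; every axis starts at 0. Ccnd1 lies at 28.8 CPM or more in cKO and at 21.4 CPM or less in WT, while Mycn lies at 33.6 CPM or less in cKO and at 47.9 CPM or more in WT.

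The kinases Cdk4 and Cdk2 were not called. Cdk4, a partner of D cyclins, had 297, 289 and 287 CPM in cKO and 287, 302 and 259 CPM in WT. Its fold was 1.03 (95% interval 0.864 to 1.23; edgeR adjusted p = 0.898). It shares 604 bases with Tspan31 on the other strand, which had 760 to 975 counts in cKO and 797 to 895 counts in WT. Cdk2, the partner of E cyclins, had 95.0, 85.6 and 85.2 CPM in cKO and 97.0, 90.7 and 85.2 CPM in WT, with a fold of 0.974 (95% interval 0.819 to 1.16; edgeR adjusted p = 0.909). For both kinases the groups overlapped, and the intervals do not hold a fold as large as that of Ccnd1. Leaving out 1 library turned the sign of these near-zero values, to 0.012 on the log2 scale for Cdk2 without WT library 1 and to -0.017 for Cdk4 without WT library 3.

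Cdk6, the second kinase of D cyclins, was the rarest of the 10 genes, with 45, 57 and 71 counts in the cKO libraries and 26, 31 and 39 counts in the WT libraries. That is 2.96, 3.79 and 4.08 CPM in cKO and 1.62, 2.06 and 2.33 CPM in WT. All cKO libraries were higher, with a wide interval: the fold was 1.80 (95% interval 1.07 to 3.03; log2 fold change 0.85, SE 0.341, edgeR adjusted p = 0.25). The 379 bases at its start are shared with a protein-coding locus that has an identifier and no gene name in the file, on the same strand. That locus had 43, 107 and 41 counts in cKO and 12, 24 and 16 counts in WT (edgeR adjusted p = 0.0793), and how the authors' counting divided shared reads was not given in the sources used here. On the log2(FPKM + 1) scale the log2 fold change of Cdk6 was 0.39, since the pseudocount exceeds most of its values.

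Mycn fell in cKO testes, and Myc was not called. Mycn encodes N-Myc, known from mouse embryos as the Myc family member of many progenitor tissues. It had 30.6, 33.6 and 25.5 CPM in cKO libraries 1, 2 and 3, against 47.9, 57.2 and 48.3 CPM in WT libraries 1, 2 and 3. The groups were well apart, with cKO library 3 lowest and WT library 2 highest. Mycn was 1.71-fold lower in cKO (fold of cKO over WT 0.585, 95% interval 0.467 to 0.732; log2 fold change -0.77, SE 0.147, edgeR adjusted p = 0.0146). With edgeR the call held without cKO library 1 (adjusted p = 0.0213) and without cKO library 2 (adjusted p = 0.0065). It was lost without cKO library 3 (adjusted p = 0.0914), WT library 1 (adjusted p = 0.0536), WT library 2 (adjusted p = 0.0817) or WT library 3 (adjusted p = 0.058), while the log2 fold change ran from -0.86 to -0.67. In the coordinates of the file Mycn spans positions 10540846 to 10546664 on the minus strand of chromosome 12, and no other row overlaps it.

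Myc encodes c-Myc, the founding member of the family. It had 19.5, 16.0 and 18.2 CPM in cKO and 15.2, 15.6 and 19.0 CPM in WT. The groups overlapped, and the fold was 1.08 (95% interval 0.828 to 1.40; log2 fold change 0.11, SE 0.172, edgeR adjusted p = 0.824). Per length, Mycn exceeded Myc in every library of both groups. The FPKM ratio of Mycn to Myc was 1.32, 1.77 and 1.18 in cKO, against 2.65, 3.08 and 2.13 in WT. This ratio did not overlap between the groups and was not tested.

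**Figure D3:**
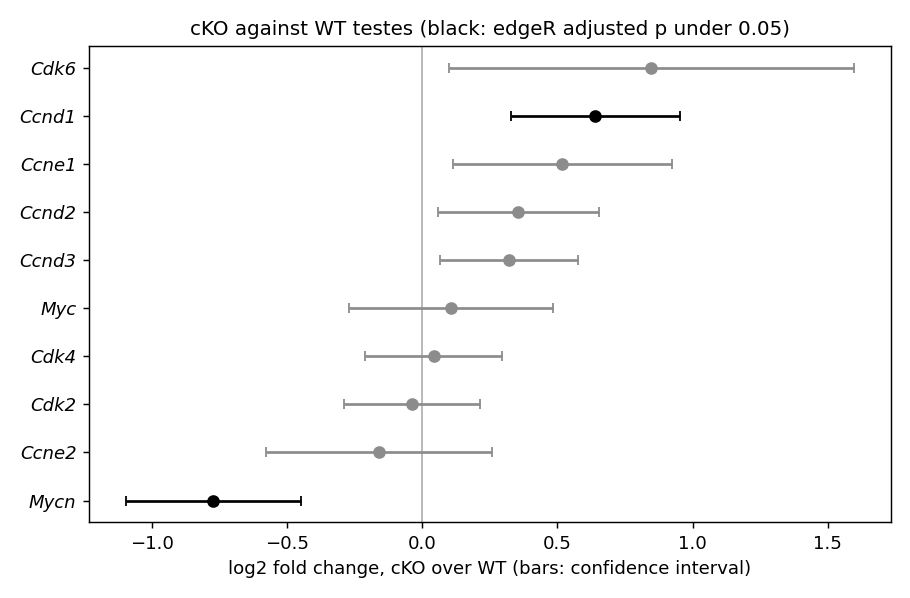
Log2 fold change of cKO over WT for each gene with its 95% interval from the edgeR fit; black points are called at an adjusted p under 0.05 and grey ones are not. Mycn (-0.77) and Ccnd1 (0.64) are the called genes, and the interval of Cdk6 is the widest, from 0.10 to 1.60.

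Upstream sequence is shown for Mycn, the gene that fell, and for Cdk4, an abundant gene with overlapping groups, since their windows carried the most motif matches. RefSeq windows of the GRCm38.p6 build were found for 6 of the 10 genes, with 7 windows in all. Ccnd1, Ccnd2, Ccne2 and Myc had no window and were not searched. The 250 bases before each start were searched on both strands. The motifs were TTTGGCGC or TTTCGCGC for E2F, CACGTG for the E-box and CTTTGA for TCF/LEF, and capitals mark their matches on either strand. The Mycn window lies at chr12:12941837-12942086 on the minus strand and that of Cdk4 at chr10:127063285-127063534 on the plus strand, each written 5′ to 3′ along the gene.
Mycn: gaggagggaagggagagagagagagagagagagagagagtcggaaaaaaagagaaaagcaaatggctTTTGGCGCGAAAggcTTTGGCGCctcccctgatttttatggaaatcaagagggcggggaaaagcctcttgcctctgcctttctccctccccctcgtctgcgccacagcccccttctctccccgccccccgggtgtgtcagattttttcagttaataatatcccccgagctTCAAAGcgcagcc
Cdk4: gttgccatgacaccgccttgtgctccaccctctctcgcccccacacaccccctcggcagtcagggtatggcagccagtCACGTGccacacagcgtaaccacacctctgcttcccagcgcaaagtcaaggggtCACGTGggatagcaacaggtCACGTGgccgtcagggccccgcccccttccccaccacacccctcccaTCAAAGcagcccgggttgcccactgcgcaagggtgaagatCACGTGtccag
Mycn held 3 E2F matches between 183 and 161 bases before its start, the first and second of which overlap, where 0.654% of 32851 windows held any. Cdk4 held 4 E-boxes, at 172, 118, 98 and 11 bases before its start, where 6.02% of windows held any. Each also held 1 TCF/LEF match, where 13.8% of windows held any. Cdk6 held 1 E-box, and the windows of Ccnd3, Ccne1 and Cdk2 held none of the strings searched. Other spellings of the E2F motif were not searched, so a window without a match here may still hold one. The share of 0.654% likewise covers the searched spellings alone. A match is a string of letters and was not tested for binding.

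The transcripts that moved most like the called genes were found by the root mean square difference of log2 CPM, centred on each gene's mean, over the 6 libraries and 13527 other protein-coding genes averaging 2 CPM or more. For Mycn these were Scara5, a ferritin receptor gene (difference 0.0439), Epha2, an ephrin receptor gene (0.0772), and Erbb2, which encodes a receptor tyrosine kinase (0.0838). Their log2 fold changes were -0.83, -0.73 and -0.86. Nearest to Ccnd1 were Amph (0.0604), Acadvl, an enzyme gene of fatty acid oxidation (0.0656), and Kirrel3 (0.066). Here the log2 fold changes were 0.70, 0.53 and 0.73, and Amph was not called (edgeR adjusted p = 0.13). These 6 genes were picked for their pattern, so the values are a description.

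Of 90 other genes of the G1 network that were tested, 2 were higher and 1 lower in cKO, beside 3.35% called of all tested genes. The CDK inhibitors held both higher genes among 7 tested. Cdkn1a, the gene of p21, which inhibits CDK2 and binds D cyclin complexes, stood at 76.1, 73.7 and 61.2 CPM in cKO, against 5.29, 3.33 and 2.93 CPM in WT (log2 fold change 4.19, edgeR adjusted p = 5.06e-06). Cdkn1c, the gene of p57, had 197, 285 and 216 CPM in cKO and 126, 154 and 102 CPM in WT (log2 fold change 0.87, edgeR adjusted p = 0.0218). This call was lost without cKO library 3 (adjusted p = 0.0748), WT library 1 (0.103) or WT library 3 (0.12), and on both FPKM scales (limma-trend adjusted p = 0.0741 and 0.0705). The other inhibitors, Cdkn1b, Cdkn2a, Cdkn2b, Cdkn2c and Cdkn2d, lay between -0.13 and 0.30 on the log2 scale and were not called.

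The RB and E2F genes held 1 call among 13. E2f6, a repressive member of the E2F family, had 83.0, 89.8 and 74.6 CPM in cKO and 115, 114 and 117 CPM in WT and was called lower (log2 fold change -0.48, edgeR adjusted p = 0.0445). Of the fits with 1 library left out, the one without cKO library 2 kept this call (adjusted p = 0.0254). It was lost without cKO library 1 (adjusted p = 0.0613), cKO library 3 (0.215), WT library 1 (0.16), WT library 2 (0.127) or WT library 3 (0.198), and on both FPKM scales (limma-trend adjusted p = 0.0701 and 0.0647). Rb1 averaged 28.3 ± 2.30 CPM in cKO testes and 34.4 ± 4.27 CPM in WT testes. E2f1 averaged 67.7 ± 13.9 CPM in cKO testes and 62.1 ± 6.36 CPM in WT testes, and neither gene was called (SD, n = 3 each). The list median was -0.15.

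No gene was called in the remaining 4 lists by edgeR with all 6 libraries, the low-count filter and group as the only term. Among 17 genes of CDK activation and cyclin or MYC turnover, 2 had an unadjusted p under 0.05, both lower: Usp28, a deubiquitinase that stabilises MYC in human cells (-0.48, edgeR adjusted p = 0.134), and Cks2, a CDK subunit (-0.50, edgeR adjusted p = 0.134). Usp28 was called lower by edgeR without cKO library 2 (adjusted p = 0.0407) and without the low-count filter (adjusted p = 0.0248). Of 11 genes of the MAX network 1 was higher and 3 lower at that level. Nearest to a call were Mlxipl, which encodes the glucose-sensing factor ChREBP (-1.05, edgeR adjusted p = 0.113; DESeq2 adjusted p = 0.017; edgeR adjusted p = 1.62e-05 without the low-count filter), and Mxi1, a MYC antagonist (-0.41, edgeR adjusted p = 0.131). With the replicate number as a block, edgeR called Mlxipl lower too. Max, the partner of MYC and MYCN, averaged 49.1 ± 6.55 CPM in cKO testes and 50.1 ± 2.89 CPM in WT testes (SD, n = 3 each).

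Neither list of downstream genes held a called gene. Of 22 genes listed as E2F targets of the G1/S boundary, 1 was at an unadjusted p under 0.05. The list, which also holds Mki67 and Top2a, had a median of -0.12 with 6 of 22 positive. Cdc6, a licensing factor of replication, and Rrm2, a subunit of ribonucleotide reductase, had the smallest p (-0.36 and 0.27, edgeR adjusted p = 0.269 and 0.324). Of 20 MYC targets 3 were at an unadjusted p under 0.05, 2 of them higher, and the median was 0.024. Ldha, a lactate dehydrogenase gene, and Tert, the telomerase gene, lay nearest to a call (0.27 and 0.43, edgeR adjusted p = 0.248 and 0.255). Over all tested genes the shares at an unadjusted p under 0.05 and called were 15.8% and 3.35%. DESeq2 called 2 network genes higher and 3 lower, and limma-voom called 2 higher and 1 lower.

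**Figure D4:**
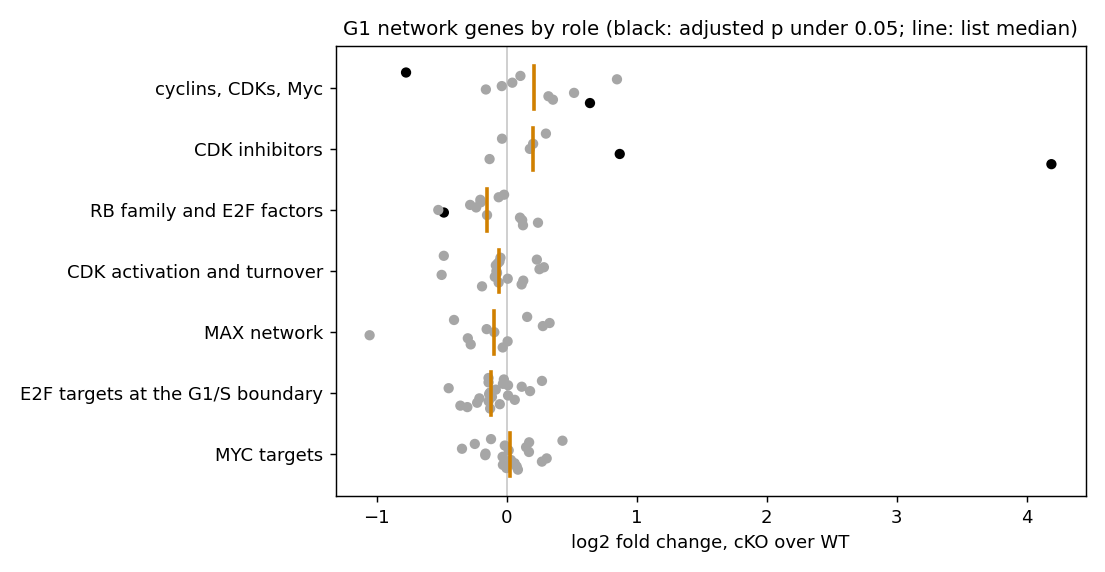
Log2 fold change of cKO over WT for the tested genes of 7 lists, 1 point per gene and orange lines at the list medians; black points are called at an adjusted p under 0.05. The cyclins, CDKs and Myc genes have a median of 0.21 and the E2F targets one of -0.12, and Cdkn1a lies apart at 4.19.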

How the data were processed

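The authors' deposited gene table holds whole-number counts, not normalised, for 6 libraries. A second deposited table gives FPKM, which equalled the count over gene length over a library denominator of 0.968 to 1.05 times the count total. The submitters' processing notes name HISAT2 2.0.5 and GRCm38, yet identifiers and coordinates in the tables are those of the C57BL/6NJ annotation. The counter, its strand setting and the annotation release were not given in the sources used here.

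Genes passing filterByExpr were fitted with edgeR 4.0.16 in R 4.3.3 (TMM scaling, quasi-likelihood F test, group as the only term). P-values were adjusted over all 18383 genes by Benjamini-Hochberg, at a threshold of 0.05. SE is the absolute log2 fold change over the square root of F. The procedure was tested on simulated data. Tested genes had a median of 282 to 329 counts a library. The biological coefficient of variation was 19.7%. Alternatives were other scalings and filters, DESeq2 1.42.0, limma 3.58.1 (voom, and trend on log2(FPKM + 0.1) and log2(FPKM + 1)), the replicate number as a block, and leaving out each library. Libraries of a group differed beyond sampling noise (a chi-square of 13.5 to 40.5 per degree of freedom), so each counted as 1 replicate.

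The 10 genes and all lists were chosen with earlier results of these data known. Text names the 10 genes, called genes of the other lists (at most 6 a list, otherwise the 2 with the smallest p), and 3 nearest patterns for each called gene. Rb1, E2f1, Max and the other CDK inhibitors were named after their values were seen. So were Wnt4, Foxl2, Gata4, Wt1, Ptch1, Des, Kdr, Hba-a1, Pnmt, Fdx1, Emx2, E2f7, Mki67, Top2a and the genes overlapping a member. Skp2, Tyms, Uhrf1 and some listed markers were not analysed here, and 1 listed gene was matched through a RefSeq synonym. RefSeq sequences are of GRCm38.p6 and were not mixed with the coordinates of the file. Summed levels of further marker lists were those of endothelium (587 to 769.9 CPM in cKO, 603.2 to 705.2 CPM in WT), macrophages (68.95 to 77.57 CPM in cKO, 59.24 to 81.04 CPM in WT), erythroid cells (103.9 to 348.5 CPM in cKO, 77.63 to 122.8 CPM in WT) and adrenal genes (28.98 to 57.36 CPM in cKO, 37.72 to 54.39 CPM in WT). These sums overlapped, yet edgeR called single genes, beside 3.35% of all tested genes. Kdr was higher among 7 endothelial genes (log2 fold change 0.66) and Hba-a1 among 4 erythroid genes (1.57). Pnmt was lower among 5 adrenal genes (-4.16), and 0 of 8 macrophage genes were called. Of the lists summed earlier, Fdx1 was higher among 8 Leydig genes (0.85) and Emx2 among 6 mesonephric genes (1.06).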

Additional observations from a re-analysis of the deposited data

How the results depend on the processing

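Ccnd1 and Mycn kept their direction in all 16 alternative fits. Ccnd1 was called in 9 of them and Mycn in 12. On both FPKM scales (limma-trend, pseudocounts of 0.1 and 1) 0 of the 10 genes were called higher, and Ccnd1 had an adjusted p of 0.061 and 0.0674. With 1 library left out, the 10 genes held 0 to 1 higher and 0 to 1 lower calls. No fit called any of the other 8 genes. Cdk2 (0.012 without WT library 1, range -0.090 to 0.012 with 1 library left out) and Cdk4 (-0.017 without WT library 3, range -0.017 to 0.10) changed sign, and no other of the 10 genes did.

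Over all genes, 276 higher and 339 lower calls became 613 and 651 without a low-count filter and 527 and 574 with DESeq2. With log2(FPKM + 0.1) they were 149 and 223, and with log2(FPKM + 1) 156 and 241. Leaving out 1 library gave 105 to 342 higher and 167 to 399 lower. The causes were not tested. The other G1 network genes, whose alternatives were chosen after seeing the data, had 2 higher and 1 lower calls. Both FPKM scales gave 1 higher and 0 lower, DESeq2 gave 3 lower and no filter 4 lower. With 1 library left out these counts ran from 1 to 2 higher and 0 to 2 lower.

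The replicate numbers gave no clear sign of pairing between the groups. Same-numbered deviations correlated at -0.0119, 0.223 and 0.0271, and not every library correlated best with its own number. With 3 libraries a group, such correlations cannot exclude a pairing. With the replicate number as a block, 324 genes were higher and 372 lower, Ccnd1 had an adjusted p of 0.0474 and Mycn of 0.0101, and 1 of the 10 genes was called in each direction. E2f6 lost its call there (0.0532) and Mlxipl gained one (0.0262). Cdk6 had the fewest counts of the 10 genes, 26 to 71 a library, and the largest SE (0.341), which holds the spread between libraries as well as counting error.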
